A study of Mus musculus with 12 samples.

Results

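Jun and Cebpb encode transcription factors that respond to stress and growth signals in the liver. They are 2 of the 305 genes that could be named on these arrays, and they are read by 3 of the 33012 probes in the deposited value table. Probes were matched to mouse Jun and Cebpb through the RefSeq transcript accession given for each probe. Jun has 1 probe (534427) and Cebpb has 2, of which 450590 was selected on its higher mean signal and 640455 is described beside it. The pair itself was chosen from earlier results on the same arrays, which included the difference between Hdac3-null and control liver at postnatal day 28 (P28). The values of that comparison, and of any comparison that contains it, are therefore given as a description with no test.

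The data are 12 single-colour ABI1700 arrays of liver RNA from C57B/6 mice at postnatal day 17 (P17) or P28. The comparison asks which transcripts change when the histone deacetylase Hdac3 is lost from liver. Null groups are labelled as Hdac3-null livers, with no Cre named, and controls as mice that express Albumin-Cre, a Cre recombinase under a promoter active in hepatocytes. The RNA is labelled as from liver, with no cell type sorted. The first control pools were from Hdac3 wild-type mice at each age, the second P28 control pool was from wild-type or heterozygous mice, and for the second P17 control pool the labels say only that it is control. Each pool held RNA of 5 mice, and each of the 4 groups had 2 pools. The first pool was hybridised on 2 arrays from separate chip lots and the second pool on 1 array. The duplicates count as 1 pool, which leaves n = 2 in each group. A p-value therefore rests on the spread between pools and not between single mice.

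Jun is a basic leucine zipper protein that pairs with Fos or ATF proteins to form the dimer AP-1, and it is activated when JNK kinases phosphorylate it. In rodent liver its transcript is among the immediate early genes induced after partial hepatectomy, and mouse hepatocytes without Jun regenerate poorly. Cebpb encodes C/EBP beta, another basic leucine zipper protein, which is translated as a long activating form (LAP) and a short inhibitory form (LIP). It drives acute phase genes downstream of interleukin-6 and takes part in gluconeogenesis and regeneration. Hdac3 is the catalytic deacetylase of the NCoR and SMRT corepressor complexes.

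The promoters of both genes are shown because the arrays measure the transcripts that start there. Each sequence is the 250 bases before the transcription start on the coding strand, 5' to 3', from RefSeq (GRCm38.p6). Jun lies on the minus strand at chr4:95052223-95052472 and Cebpb on the plus strand at chr2:167688665-167688914. Capitals mark matches to the motifs named after the sequences.
Jun: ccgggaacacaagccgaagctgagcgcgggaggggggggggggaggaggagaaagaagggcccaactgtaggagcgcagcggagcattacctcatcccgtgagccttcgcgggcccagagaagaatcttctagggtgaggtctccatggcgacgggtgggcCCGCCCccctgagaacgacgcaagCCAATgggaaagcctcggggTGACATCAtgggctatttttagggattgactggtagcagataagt
Cebpb: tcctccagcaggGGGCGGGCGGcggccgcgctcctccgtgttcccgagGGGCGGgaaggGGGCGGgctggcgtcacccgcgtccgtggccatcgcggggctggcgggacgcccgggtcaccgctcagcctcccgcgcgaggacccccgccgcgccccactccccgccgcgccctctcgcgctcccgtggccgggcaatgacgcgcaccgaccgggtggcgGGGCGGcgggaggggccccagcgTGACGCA

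The motifs were chosen with both sequences in view and were searched on both strands of all 32851 promoter windows of this length in the RefSeq table. The Jun window holds TGACATCA, a variant AP-1 site through which Jun is known to act on its own gene, starting 45 bases before the start. This motif is found in 2.93% of the windows. Jun also has a CCAAT box 65 bases before the start (33.85% of windows) and a GC box, GGGCGG, on the opposite strand 89 bases before it (32.74%). The Cebpb window holds 5 GC boxes, of which the 2 farthest from the start overlap, and the cyclic AMP response-like motif TGACGCA 7 bases before the start (1.75% of windows). The windows have a G and C content of 61.2% for Jun and 81.6% for Cebpb. Neither window has the AP-1 motif TGACTCA (4.46% of windows) or the cyclic AMP response element TGACGTCA (1.55%). Nor does either have the TATA box TATAAA (12.37%) or the C/EBP palindrome TTGCGCAA (0.16%). None of these matches was tied to the measured levels.

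Each value was read as log2 of the intensity after quantile normalization over the 12 arrays. The share of probes whose signal-to-noise score reached 3 ran from 36.46% to 48.16% by array. Over 12851 probes the duplicates of a pool correlated with r = 0.965 to 0.980, and the 2 pools within a group with r = 0.924 to 0.952. The deposited values fall into 3 sets of 4 arrays with a common distribution each: the second pools of all groups, the P17 first pools and the P28 first pools. The second P28 null pool has the distribution of the second pools in the value table, while the scanner file attached to it is a copy of the P28 first pools' export. A comparison of genotypes at 1 age thus stays within a set for each pool, while a comparison of ages does so only for the second pools. No probe could be named Hdac3, so its loss was not checked here, and none of the 7 hepatocyte markers listed had a named probe.

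Jun read above the detection level, 9.80 on the log2 scale, on all 12 arrays. The spot was less certain than this level says, since 2 of 12 scanner readings had a signal-to-noise score under 3. The scores ran from 1.29 to 17.21, and both low ones lay in the export attached to 3 of the second pools. Scanner columns carry no sample name, so these readings were not placed. Cebpb was far from this limit, with scores of 33.87 to 138.23 for the brighter probe and 21.58 to 74.85 for the other.

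**Figure D1:**
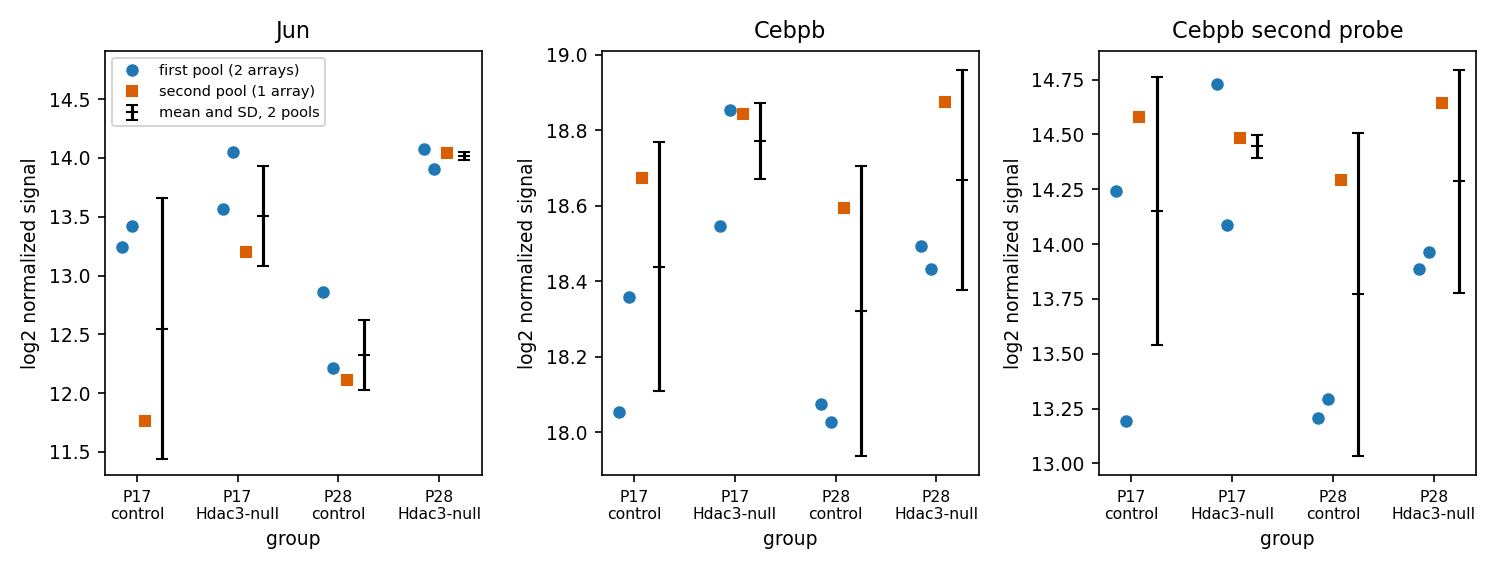
Log2 normalized signal of Jun and of the 2 Cebpb probes on every array, by group, with a separate vertical scale in each panel. Circles are the 2 arrays of a first pool, squares the array of a second pool, and bars the mean and SD of 2 pools. For Jun the 3 P28 null arrays sit between 13.91 and 14.08, above every P28 control array, while for Cebpb the second pool lies above the first pool's mean in all 4 groups.

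By the mean of 2 pools, Jun transcript was highest in P28 Hdac3-null liver and lowest in P28 control liver, although among the second pools P17 control lay lower (11.76 against 12.11). In P28 control liver the arrays of the first pool read 12.86 and 12.22 and that of the second pool 12.11. In P28 Hdac3-null liver they read 14.08 and 13.91, and 14.04. The null arrays were all higher, and the 2 groups did not overlap. The same is true, in either direction, of 17.8% of probes with a value on all 6 arrays, and nothing is read from it because this comparison chose the gene. The pool means were 12.33 ± 0.30 in control and 14.02 ± 0.03 in null liver (SD, n = 2 pools), a difference of 1.69 on the log2 scale (SE 0.54), or 3.23-fold. The first pools differed by 1.46 and the second pools by 1.92. Without the second P28 null pool the difference was 1.67. In the deposited intensities, which differ in distribution between first and second pools, the first control pool read 5226 and 3298 and the first null pool 12361 and 11003. The second pools read 6534 in control and 24630 in null liver. Of all probes, 1.46% had a higher difference. In RNA of whole liver, more Jun-expressing cells and more Jun transcript per cell cannot be told apart. Some named transcripts of leukocytes and of epithelia, chosen after their values were seen, were higher in P28 null liver, by 1.23 to 3.91. Krt23, the listed keratin of bile duct and progenitor cells, went the other way (-0.91, SE 0.61). These are described with the marker genes, and the part of such cells in the Jun difference was not tested.

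At P17 the null arrays of Jun read 13.57 and 14.05 for the first pool and 13.20 for the second. The control arrays read 13.24 and 13.42, and 11.76. The groups overlapped, because the second null pool lay below both arrays of the first control pool. The pool means were 12.55 ± 1.11 in control and 13.51 ± 0.43 in null liver (SD, n = 2 pools). The difference of 0.96 (SE 0.54, 95% interval -0.30 to 2.22, 1.94-fold) did not pass limma's test (unadjusted p = 0.12, adjusted p = 1 over all probes). It was 0.48 in the first pools and 1.44 in the second. With the set of arrays as a block the P17 difference was again 0.96, with a smaller SE of 0.35 (adjusted p = 0.62 in limma). Without the second P17 control pool, the lowest Jun value of all 12 arrays, the P17 difference was 0.17, and without the first P17 control pool it was 1.74. Control liver then lacks a set of arrays that null liver keeps, so the gap between first and second pools enters both values.

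The 4 groups stood in the order P28 null, P17 null, P17 control and P28 control for Jun. The gaps between neighbours were 0.51, 0.96 and 0.22, each less than 2 SE in the fit without a block (SE 0.54). In control liver Jun differed by -0.22 between P17 and P28 (SE 0.54, 95% interval -1.48 to 1.04, adjusted p = 0.97), with -0.80 in the first pools and 0.35 in the second, so the pools had opposite signs. With the set of arrays as a block the difference in control liver was 0.23 (SE 0.43), and without the first P17 control pool it was 0.56. In null liver Jun was 0.51 higher at P28 (SE 0.54, 95% interval -0.75 to 1.77, adjusted p = 0.95), with 0.19 in the first pools and 0.84 in the second. It was 0.21 without the second P17 null pool, 0.81 without the first, and 0.96 with the set of arrays as a block (SE 0.43, adjusted p = 0.50 in limma). The first pools of P17 and P28 lie in different sets. In the block fit only the second pools therefore inform the age difference averaged over control and null liver. The genotype difference at P28 exceeded that at P17 by 0.73 (SE 0.77), by 0.98 in the first pools and 0.48 in the second. This last value contains the P28 comparison and is a description.

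**Figure D2:**
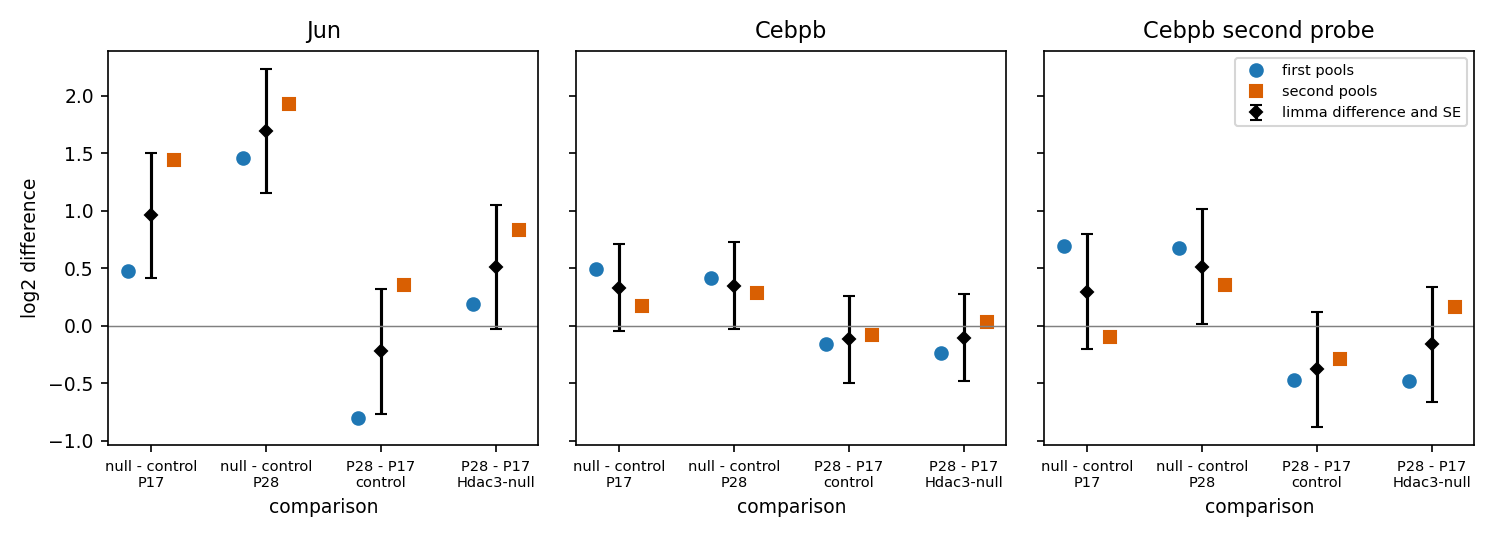
Log2 differences of Jun and of the 2 Cebpb probes between Hdac3-null and control liver at each age and between the ages in each genotype. Diamonds with bars are the limma difference and its SE over 8 pools, circles the first pools and squares the second pools. Jun at P28 (1.46 and 1.92) lies farthest from 0, while Jun in control liver has pools on both sides of 0 (-0.80 and 0.35).

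In the fit without a block, no Cebpb difference between groups exceeded 2 SE by either probe. At P28 the brighter probe read 18.07 and 18.03 in the first control pool and 18.59 in the second, against 18.49 and 18.43, and 18.87, in null liver. Each null pool was above the control pool of the same set, but the groups overlapped, since the second control pool lay above the first null pool. The pool means were 18.32 ± 0.38 in control and 18.67 ± 0.29 in null liver (SD, n = 2 pools). The P28 difference was 0.35 (SE 0.38, 1.27-fold), with 0.41 in the first pools and 0.28 in the second, and 26.9% of all probes had a higher one. Without the second P28 null pool it was 0.14, but this sets the first null pool against both control pools. The gap between first and second pools then enters the difference.

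At P17 the brighter Cebpb probe read 18.05 and 18.36 in the first control pool and 18.67 in the second, and 18.55 and 18.85, and 18.84, in the null pools. These groups overlapped as well. The means of 18.44 ± 0.33 and 18.77 ± 0.10 (SD, n = 2 pools) differed by 0.33 (SE 0.38, 95% interval -0.55 to 1.21, 1.26-fold; unadjusted p = 0.41, adjusted p = 1 in limma over all probes). The first pools differed by 0.50 and the second by 0.17.

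The genotype difference of Cebpb at P28 exceeded that at P17 by 0.01 (SE 0.53), and was 0.19 smaller (-0.19) without the second P28 null pool. Between P17 and P28 Cebpb differed by -0.12 in control liver (SE 0.38, 95% interval -0.99 to 0.76, adjusted p = 0.98) and by -0.10 in null liver (SE 0.38, 95% interval -0.98 to 0.77, adjusted p = 0.99). Without the second P28 null pool the null difference was -0.31 for Cebpb, and 0.49 for Jun. In fits without that pool the P28 null group lacks the set of the second pools. The gap between first and second pools then enters its differences. The order of the groups was P17 null, P28 null, P17 control and P28 control, with gaps of 0.10, 0.23 and 0.12, all below 1 SE. These intervals do not show that the levels were equal.

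The pools of a group differed as much as the groups did for Cebpb: the second was above the first in 4 of 4 groups, by 0.14 to 0.54. For Jun the second pool was higher in 1 of 4 groups, and the gap ran from -1.57 to 0.04. Second pools differ from first pools in the mice and in the set of arrays at once, and these cannot be told apart.

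The other Cebpb probe gave the same signs as the brighter one in all 5 differences fitted. It read 14.15 ± 0.61 in P17 control, 14.45 ± 0.05 in P17 null, 13.77 ± 0.74 in P28 control and 14.29 ± 0.51 in P28 null liver (SD, n = 2 pools). Its null minus control difference was 0.30 at P17 (SE 0.50), with 0.69 and -0.10 in the 2 pools, and 0.52 at P28 (SE 0.50), with 0.68 and 0.35. It was noisier: duplicate arrays differed by up to 1.05, against 0.31 for the brighter probe and 0.64 for Jun. Over 8 pools the 2 Cebpb probes followed each other with r = 0.97, and over 12 arrays with r = 0.68.

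No call was made for either gene in the comparisons tested. In limma with p adjusted over all probes, 0 of 2 genes passed at P17, where 0.0454% of probes did, 0 of 2 between the ages in control liver (0.176% of probes) and 0 of 2 between the ages in null liver (0.00909%). At an unadjusted p under 0.05 in the same fit, which has no block, the counts were also 0 of 2 in each, against 4.54%, 7.39% and 6.79% of probes. Arrays of the groups overlapped for both genes in these comparisons, while they did not overlap for 16.5% of probes at P17, 18.2% between the ages in control liver and 18.3% between the ages in null liver.

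**Figure D3:**
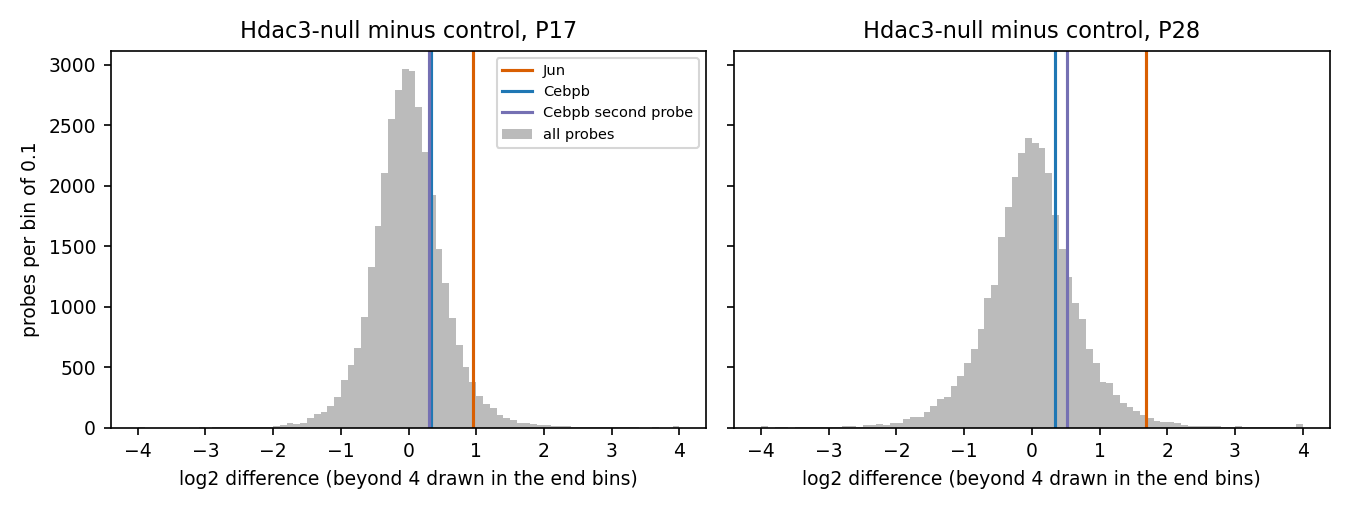
Number of probes per bin of 0.1 in the log2 difference between Hdac3-null and control liver at P17 and at P28, with vertical lines at Jun and the 2 Cebpb probes. Jun stands in the right tail, at 0.96 at P17 and 1.69 at P28, and the Cebpb probes lie within the bulk, between 0.30 and 0.52. The genes were chosen with the P28 difference in view, so their places at P28 are a description.

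Against all probes, 7.44% had a larger difference than Jun in either direction at P17 and 2.85% at P28. For Cebpb the shares were 46.6% and 53.9%. The P28 shares are a description, since that difference was in view when the genes were chosen. The median difference over all probes was -0.01 at P17 and 0.00 at P28, with an SD across probes of 0.56 and 0.72.

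Few partners of these factors could be named. Of 204 genes in 19 lists for their pathways and for liver cell types, 5 had a named probe. Jun was the only one of 18 AP-1 proteins and Cebpb the only one of 6 C/EBP family genes. None of the 18 genes of the JNK pathway, 10 of interleukin-6 and STAT3 signalling, 21 acute phase genes, 15 immediate early and regeneration genes or 24 cell cycle genes had one, nor did the lists of DNA damage (11 genes) and oxidative, heat and ER stress (20 genes). These genes were not analysed here. G6pc, which encodes a catalytic subunit of glucose-6-phosphatase and is a known C/EBP target, was the only one of 7 metabolic targets. It was the only list gene called in a tested comparison, and fell by 2.74 between P17 and P28 in control liver (SE 0.35, adjusted p = 0.038 in limma), while Cebpb differed by -0.12. That call was lost without any 1 of the 8 pools. At P17 and P28 G6pc differed by -1.10 and 0.89 between null and control liver (SE 0.35 for each), opposite signs that the Cebpb transcript did not share. C/EBP beta protein was not measured, and its part in the G6pc values was not tested.

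Of the listed markers of other liver cells, 2 had a named probe. The erythroid globin gene Hba-a1 differed by 0.12 at P17 and 0.13 at P28 between null and control liver (SE 0.34 for each). Krt23, a keratin of bile duct and progenitor cells, differed by -1.21 and -0.91 (SE 0.61 for each). No listed marker of macrophages, neutrophils, lymphocytes, stellate cells or endothelial cells had a named probe. Other named transcripts known from leukocytes or epithelia, chosen here after their values were seen, were higher in P28 null than in P28 control liver. The leukocyte transcript Lst1 read 10.23 ± 0.17 in P28 control and 11.45 ± 0.05 in P28 null liver (SD, n = 2 pools), a difference of 1.23 (SE 0.33). The eosinophil ribonuclease gene Ear1 read 10.70 ± 1.15 in P28 control and 12.77 ± 0.67 in P28 null liver (SD, n = 2 pools), a difference of 2.06 (SE 0.60). Bcl2a1b, a survival gene of the Bcl2 family known from leukocytes, differed by 2.18 (SE 0.53), although it and Ear1 belong to families of near-identical copies, which makes their probes uncertain. The largest of the 4 differences at P28 was that of Wfdc2, a secreted protein gene of epithelia, at 3.91 (SE 0.58), with 4.99 in the first pools and 2.84 in the second. At P17 Lst1, Ear1, Bcl2a1b and Wfdc2 differed by -0.10, 0.03, 1.15 and 0.17, with an adjusted p of 1 for each in limma. In control liver Lst1 and Ear1 read 11.82 and 12.65 at P17, above their P28 control levels, while in null liver they read 11.72 and 12.68 at P17. For Bcl2a1b and Wfdc2 null liver was higher at P28 than at P17, by 0.72 and 2.05. The part of such cells in the Jun values was not tested.

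Likeness to each gene was measured by Pearson's r of log2 values over 8 pools, among 131 other named genes above the detection level on every array of at least 1 group. The pools share the sets of arrays, and r is a description. Closest to Jun were Aldh3a2, the fatty aldehyde dehydrogenase (r = 0.83), the galectin genes Lgals7 (0.81) and Lgals1 (0.79), the Bcl2 family gene Bcl2a1b (0.78) and the acylphosphatase Acyp2 (0.77). Of all 12886 probes above the level, 2.24% had a higher r to Jun than Aldh3a2 did, so these are the closest named genes and not the closest probes. At P28 they differed between null and control liver by 1.70, 1.84, 2.55, 2.18 and 0.53, and at P17 by 1.41, 0.32, 1.61, 1.15 and 0.26, in the same order. The ranking used these same pools, so differences in the direction of Jun are partly built in. At P17 the Aldh3a2 pools read 13.93 and 14.13 in control and 15.31 and 15.57 in null liver, while the pools of Jun overlapped at that age. The share of all probes whose pools separate in this way was not counted, so nothing is read from it.

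**Figure D4:**
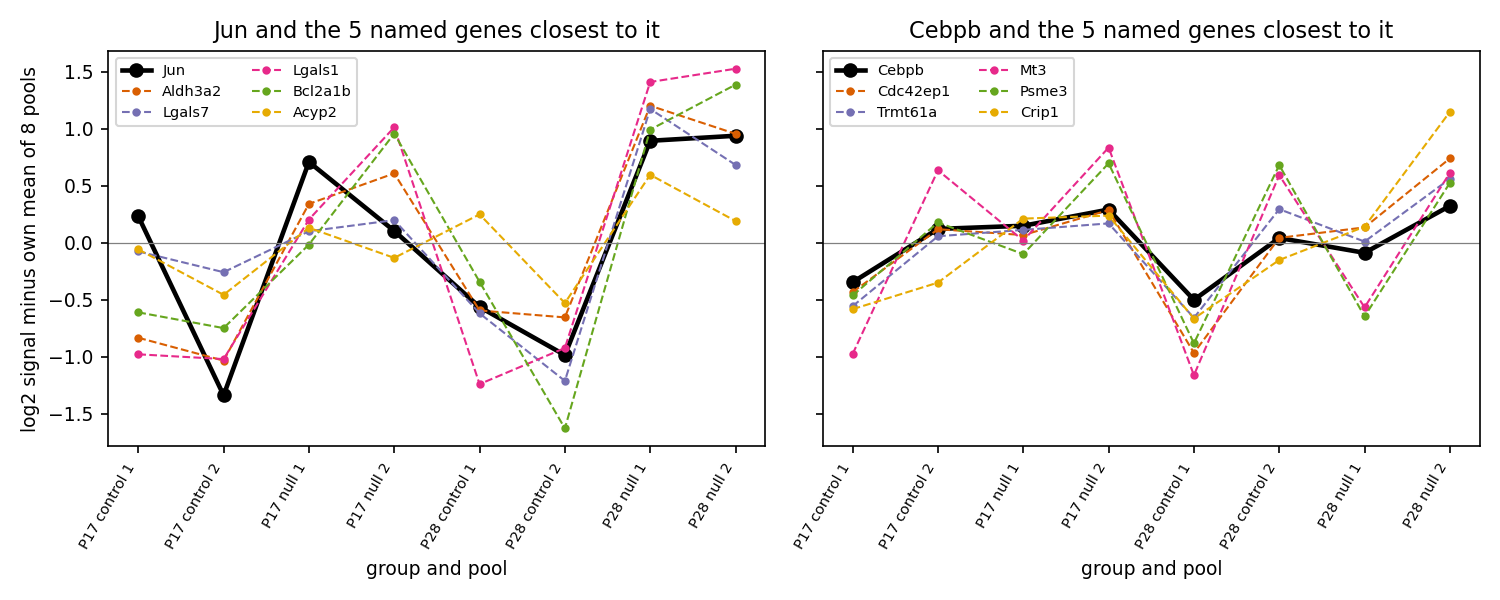
Log2 signal of Jun (left) and Cebpb (right), as thick black lines, and of the 5 named genes closest to each, in the first and second pool of every group. Each gene is drawn minus its own mean over 8 pools. Jun on the left is highest in the P28 null pools, and all 6 genes on the right are higher in the second than in the first pool of every group.

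Closest to Cebpb were Cdc42ep1, which encodes an effector of the GTPase Cdc42 (r = 0.93), the tRNA methyltransferase gene Trmt61a (0.93), the metallothionein gene Mt3 (0.92), the proteasome activator gene Psme3 (0.84) and the LIM domain gene Crip1 (0.79). All 5 were higher in the second pool than in the first in 4 of 4 groups, as Cebpb was. The gap was largest for Mt3, at 0.82 to 1.76. They were picked by r over these same pools, so a pool gap shared with Cebpb is partly built in. How many of all probes have such a gap was not counted. The part of the pool and its set of arrays in this likeness was not tested. Jun and Cebpb were not alike across pools, with r = 0.20 over 8 pools, and 37% of probes above the level had a higher r to Jun.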

How the data were processed

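Liver RNA pools were measured on 12 ABI1700 arrays. Per the labels' protocols, RNA was amplified and labelled as DIG-cRNA. The authors deposited a value table of intensity on a linear scale, named by sample, in which 0.724% of cells are empty. Within each of 3 sets of 4 arrays the values have a common distribution (the largest gap between cumulative distributions was 0.0034 within and the smallest 0.1824 between sets). The sources used here do not give the normalization. The 12 deposited scanner files are copies of 3 exports. They list a signal-to-noise score for each spot, per the file headers. Their 52 columns of per-spot values name no sample and were assigned to none, and the scores were used only pooled or per export.

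Probes were named through RefSeq accessions of the GRCm38.p6 table, version dropped (311 probes, 305 genes). Intensities were quantile-normalized over 12 arrays, set to at least 174.7, the 5th percentile, then log2-transformed, and duplicates were averaged. The detection level, an intensity of 892, is the quantile of all values at 58.6%, the share of scores below 3. limma 3.58.1 (lmFit, eBayes; 4 groups, 8 pools, 4 residual degrees of freedom) in R 4.3.3 was fitted to all 33012 probes, a probe empty in a pool on the remaining ones, with p adjusted by Benjamini-Hochberg and calls under 0.05. The fit was tested on simulated data. Named genes were the 2 members, list genes with a named probe, and the 5 closest named genes to each; Ear1, Lst1 and Wfdc2 were added after their values were seen. The members and lists were chosen with earlier results of these data known. Alternatives covered normalization, low values, the detection filter, duplicates, blocks and left-out pools.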

Additional observations from a re-analysis of the deposited data

How the results depend on the processing

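No tested difference of Jun or Cebpb was called under any of the alternatives run (adjusted p from 0.50 to 1 in limma). The P17 difference kept its sign in all of them, from 0.17 to 1.74 for Jun and from 0.10 to 0.57 for Cebpb. The P28 difference of Jun ran from 1.48 to 1.90. It was in view when the gene was chosen, so nothing is read from its kept sign. Leaving out 1 pool moved the P28 difference of Cebpb to between 0.076 and 0.62, the difference between ages in the genotype effect to between -0.053 and 1.52 for Jun and between -0.26 and 0.29 for Cebpb, and the age difference in control liver to between -1.01 and 0.56 for Jun and between -0.39 and 0.15 for Cebpb. The age difference in null liver ran from -0.31 to 0.10 for Cebpb and from 0.21 to 0.81 for Jun. A group that lost 1 pool was compared with groups that kept both. The gap between first and second pools therefore enters all the values found by leaving out a pool. With the set of arrays as a block, Jun differed by 0.23 between ages in control and by 0.96 in null liver. Only the second pools inform the average of these block values. The other probe of Cebpb gave 0.52 at P28 and 0.22 for the difference between ages. List calls between ages in control liver were 1 (G6pc) and became 0 with the deposited values, 75th percentile scaling, normexp correction, technical replicate 1 alone, the set of arrays as a block, only the pools compared, and without any 1 pool. The cause was not tested.

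Pool numbers name no shared animal. Over 12887 probes the difference of the 2 pools in a group resembled that in another with r = 0.52 to 0.65. A replicate block by pool left the differences as they were and gave an SE of 0.42 for Jun and 0.28 for Cebpb (adjusted p = 0.72 and 0.87 at P17). It called 5 probes at P17, against 15, and 246 at P28, against 131. Over all alternatives the probes called ran from 0 to 126 at P17, 0 to 521 at P28, 0 to 39 for the difference between ages, 2 to 153 between ages in control and 0 to 124 in null liver. With 2 pools a group, and a low signal-to-noise score for Jun on 2 of 12 readings, the precision is limited.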
